A study of Mus musculus with 6 samples.

Results

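The eukaryotic translation initiation factor genes were described here as 46 of the 22180 genes measured in the J774A.1 line, which was derived from a tumour of Balb/c mice and keeps many traits of macrophages. Members were the genes whose symbol starts with Eif and a digit, taken from features paired with exactly 1 symbol, and the kinases of the Eif2ak series and processed pseudogenes were left out. They fell by that digit into 4 Eif1, 10 Eif2, 12 Eif3, 15 Eif4, 4 Eif5 and 1 Eif6 genes. The set is not complete: the genes Eif1, Eif2s1, Eif3g and Eif4g1, among others, had no such feature and were not analysed. NPFF cells (3 arrays) had received neuropeptide FF, an amidated peptide of the RF-amide family, at 1 nM in PBS for 18 h, and control cells (3 arrays) had received the PBS vehicle for 18 h. The sample titles call the control cells non-treated. Cells of both groups were grown in RPMI-1640 with 10% FCS to 80% confluence. The titles name 3 biological replicates of each group, without telling whether separate cultures were raised for them. The p-values below therefore reflect only how far these arrays scattered, which may be technical. All arrays came from 1 established line, which models macrophages only as far as that line does.

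Translation initiation brings the small ribosomal subunit, the initiator tRNA and the mRNA together at the start codon. Eif2 proteins deliver the initiator tRNA, Eif1 and Eif3 proteins hold the small subunit in a scanning form, Eif4 proteins recognise and unwind the capped end of the mRNA, and Eif5 proteins complete the start step and allow the large subunit to join. In macrophages this machinery is known as a control point for cytokine output, through phosphorylation of the Eif2 alpha subunit and through the binding of Eif4e by the 4E-binding proteins. Such control acts on proteins and leaves no necessary trace in transcript levels, which are what the arrays measured.

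Values are quantile-normalized log2 intensities, and a difference is the NPFF mean minus the control mean, so 1 unit is a doubling of signal. None of the 46 initiation factor transcripts analysed was called higher or lower after NPFF by the test used. By limma with Benjamini-Hochberg adjustment over all genes, 0 of 46 members had an adjusted p under 0.05, the smallest being 1.00 after rounding, and 0 had an unadjusted p under 0.05. Over all 22180 genes the share called was 0% after adjustment and 2.51% unadjusted. The smallest unadjusted p of a member in the limma fit was 0.123, for Eif1ax. Differences ran from -0.27 for Eif4a3l1 to 0.43 for Eif4h, no member's difference reached 2 standard errors (SE), and 23 members differed by less than their own SE. Each array received a fixed mass of RNA from a whole culture, so a value is a share of that RNA, and a larger difference in some cells cannot be told apart from a smaller one in all.

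The member values leaned to the NPFF side as a set, and 1 control array carried that lean. Of the 46 members, 30 were higher and 16 lower in NPFF, with a median difference of 0.06, where all genes divided 11457 higher and 10723 lower with a median of 0.0037. Their mean signal was 9.48, 9.52 and 9.48 in the NPFF arrays and 9.24, 9.50 and 9.50 in controls 1, 2 and 3. Control 1 stood below the other 5 arrays, which lay within a few hundredths of each other, and the groups overlapped. Control 1 was the lowest array for 29 members, or 63.0%, against 48.9% of all genes. Left out, control 1 took the lean with it: 19 members were then higher and 27 lower, with a median of -0.01, beside -0.02 over all genes. Of all 22180 genes, 8670 were then higher. The 4436 genes in the top 20% by signal, where 36 of the members lie, had a median difference of 0.04 with control 1 and -0.01 without it. The part of signal strength in the members' lean was not tested.

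**Figure D1:**
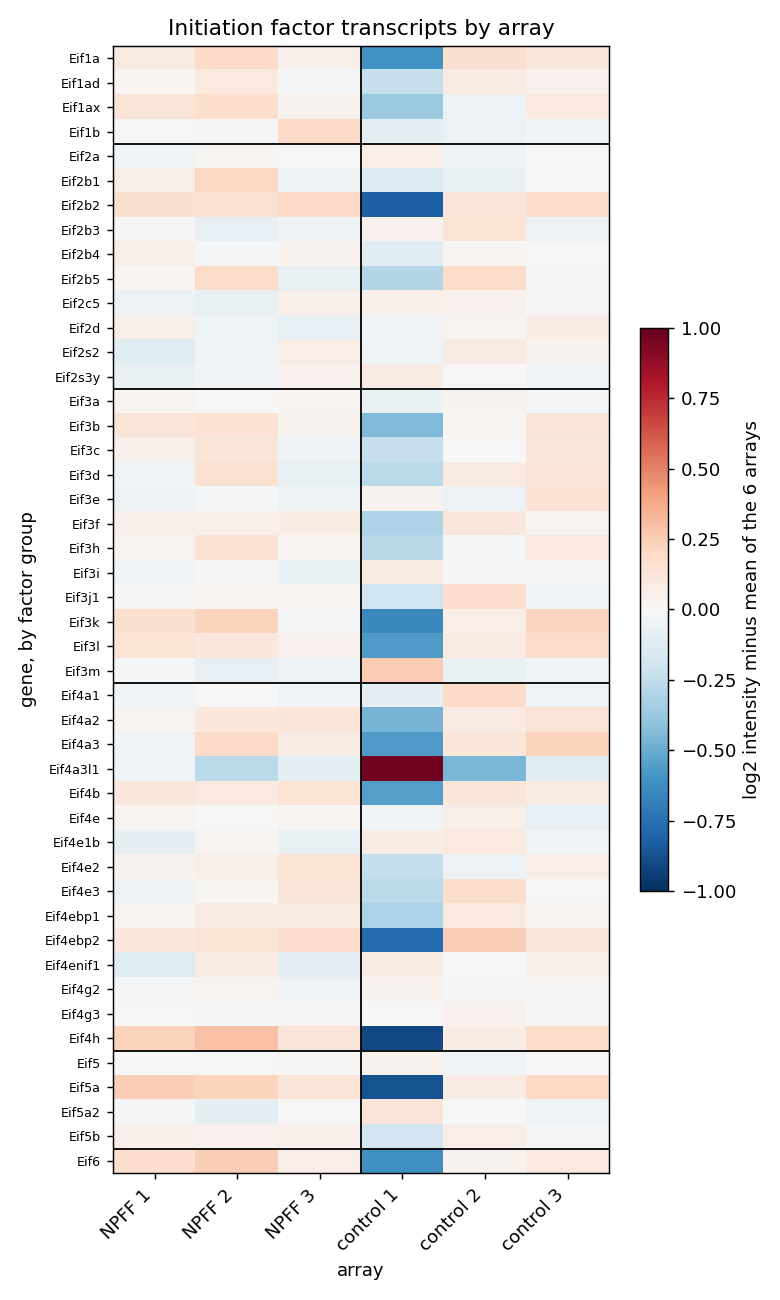
Each row is an initiation factor gene, grouped Eif1 to Eif6 from top to bottom, and each column an array, with the 3 NPFF arrays left of the 3 controls; colour is the log2 intensity minus the gene's mean over the 6 arrays. The column of control 1 holds most of the strong colours, with 10 genes more than 0.5 log2 below every other array and Eif4a3l1 about 1.00 above.

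Beyond these members, control 1 also stood apart over the whole series. The gene-wise departure of an array from the mean of the rest had an SD of 0.37 for control 1 and of 0.11 to 0.21 for the others. Over genes, which do not count as replicates, Pearson's r was 0.996 to 0.997 for pairs of NPFF arrays and 0.965 to 0.996 for pairs of controls. Macrophage markers bore out the label of the line, with 10 of 10 above the median signal of all genes, against 0 of 5 lymphocyte and 1 of 6 epithelial and endothelial markers. Of 5 fibroblast markers, 3 (Col1a1, Col1a2 and Col3a1) lay just above that median, between the 52.4th and 55.9th percentiles.

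Spread was wider among controls for most of the members. The standard deviation (SD) over the 3 arrays was larger in control than in NPFF for 38 of 46 members, with a median of 0.06 in NPFF and 0.17 in control. That was not particular to the members: the median was 0.07 in NPFF and 0.14 in control over all genes. In the top 20% by signal it was 0.06 and 0.15. All 3 NPFF arrays lay inside the control range in 18 members. Eif4g3, a scaffold of the cap-binding complex, gave 9.31, 9.30 and 9.32 in NPFF and 9.31, 9.35 and 9.29 in control. Eif5, the factor that triggers GTP hydrolysis at the start codon, gave 10.46, 10.46 and 10.48 in NPFF and 10.50, 10.43 and 10.46 in control. In these genes control 1 was not apart from the rest, so the array did not shift every factor alike.

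Promoter sequence is a property the choice of members did not use, and windows are shown for Eif1b, whose groups did not overlap, and for 6 of the 10 members in which control 1 was lowest by over 0.5 log2. Of the other members of those 10, Eif4a3 and Eif4b hold neither motif described here, and no window was matched for Eif1a or Eif6. RefSeq windows on GRCm38.p6, from 250 bases before an annotated start to 50 after it, were matched for 36 of 46 members, in 48 windows. Median GC content was 62.7% in the members' windows and 52.7% in all 32851 windows. The letters CCGGAAG, which hold the GGAA core known from ETS-family sites, were found on either strand in 14 of the 36 members and 35.4% of their windows, against 8.86% of all windows. The palindrome CACGTG, known as an E-box, was found in 9 members and 22.9% of their windows, against 7.15% of all windows. Searched alike on both strands, TATAAA was in 6.25% of the members' windows and 13.6% of all. Windows of 1 gene can overlap, so a site can count more than once, as for CCGGAAG in Eif4e2 and Eif4enif1 and for CACGTG in Eif5a. The windows of all genes were not matched to those of the members for GC content or signal, and whether either accounts for these shares was not tested. Matches do not overlap, 3 members hold both CCGGAAG and CACGTG, and a match describes letters, not a bound site. Either motif was found in 20 of the 36 members, so neither is particular to those shown. Among the 20 are Eif3m, Eif4enif1 and Eif5a2, for which control 1 was the highest array. A link between the motifs and the values of control 1 was not tested. Windows of 30 bases are printed 5′ to 3′ on the gene's strand, with the motif in capitals, which reads CTTCCGG where it lies on the other strand.
Eif1b at chr9:120492570-120492599 (+): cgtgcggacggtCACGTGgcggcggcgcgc
Eif1b at chr9:120492445-120492474 (+): cgccgttgcacCCGGAAGcgcctccgcccg
Eif2b2 at chr12:85219486-85219515 (+): cctctctcggcCCGGAAGtgaaacagtgct
Eif3k at chr7:28981915-28981944 (-): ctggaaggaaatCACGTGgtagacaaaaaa
Eif3l at chr15:79075177-79075206 (+): gctgggcgggaCTTCCGGtccggccaagca
Eif4ebp2 at chr10:61452775-61452804 (-): gccttcgaccgCTTCCGGtagtcatcgttg
Eif4h at chr5:134639488-134639517 (-): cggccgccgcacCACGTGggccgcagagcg
Eif5a at chr11:69920667-69920696 (-): cagccgtagcaCCGGAAGtgttccccattg
Eif5a at chr11:69921443-69921472 (-): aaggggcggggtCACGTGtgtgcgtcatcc

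Many mRNAs of the translation machinery are known to begin with a C followed by a run of pyrimidines, the terminal oligopyrimidine tract. Such a start, a C at the annotated start base and at least 4 of C or T after it, was found in 2 of the 36 members, in 4.17% of their windows against 2.51% of all windows. These were Eif3f, a core subunit of Eif3, and Eif2c5. The Eif3f start is shown with the pyrimidine run in capitals.
Eif3f at chr7:108934406-108934435 (+): ctaggctctCTCTCTTTCTCggcaagatgg

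Eif1 genes act at start codon selection on the small subunit. Their mean per array was 9.56, 9.61 and 9.57 in NPFF and 9.17, 9.53 and 9.56 in control, a difference of 0.16 that became 0.03 without control 1. Eif1b, a close relative of the start codon gatekeeper Eif1, gave 9.41, 9.39 and 9.60 in NPFF and 9.31, 9.35 and 9.38 in control. It was the only member whose groups did not overlap, 1 of 46 (2.17%), where 8.58% of all genes did not overlap, 3.67% with NPFF above and 4.92% with NPFF below. Among the genes in the top 20% by signal, 15.8% did not overlap. For Eif1b the gap between the lowest NPFF array and the highest control was small, and NPFF 3 stood above its own group. Eif1b differed by 0.12 (SE 0.08, unadjusted p = 0.178 by limma), and by 0.05 without NPFF 3.

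Eif1ax and Eif1a both encode the scanning factor eIF1A, and because such near-identical copies can share probe sequence their values are uncertain as separate measurements. Eif1ax gave 9.91, 9.95 and 9.81 in NPFF and 9.41, 9.72 and 9.88 in control, and Eif1a gave 9.38, 9.48 and 9.35 in NPFF and 8.68, 9.45 and 9.41 in control. In both, control 1 was the lowest array and control 3 lay among the NPFF arrays. Both differed by 0.22 (SE 0.13 for Eif1ax and 0.21 for Eif1a), but without control 1 the differences were 0.09 and -0.03. Eif1ad, which carries an eIF1A-type domain, gave 9.53, 9.61 and 9.51 in NPFF and 9.28, 9.60 and 9.56 in control. It too was lowest in control 1, and it differed by 0.07 (SE 0.10), and by -0.03 without control 1.

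The Eif2 genes divided 4 higher and 6 lower, and their mean per array was 8.33, 8.35 and 8.34 in NPFF and 8.21, 8.38 and 8.34 in control. The difference of 0.03 was smaller than the SD of the controls, 0.09, and stood at -0.02 without control 1. Of the initiator tRNA carrier itself, the beta subunit Eif2s2 differed by -0.06 (SE 0.08), with 8.75, 8.83 and 8.94 in NPFF and 8.84, 8.96 and 8.91 in control. The gamma subunit copy on the Y chromosome, Eif2s3y, differed by -0.04 (SE 0.07). Its X-linked counterpart had features with several symbols and was not analysed here, so a shared probe signal cannot be told apart from the gene's own.

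The exchange factor that recharges Eif2 with GTP, and that phosphorylated Eif2 blocks, has subunits encoded by Eif2b1 to Eif2b5. Eif2b2 gave 9.11, 9.10 and 9.15 in NPFF and 8.14, 9.08 and 9.13 in control. Controls 2 and 3 were level with the NPFF arrays and control 1 alone was low, so a difference of 0.34 (SE 0.26) became 0.01 without that array. Eif2b1 differed by 0.14 (SE 0.09) and by 0.11 without control 1, with 8.88, 9.04 and 8.78 in NPFF and 8.69, 8.76 and 8.82 in control. Its groups overlapped, since control 3 was above NPFF 3. Eif2b3, Eif2b4 and Eif2b5 differed by -0.08, 0.05 and 0.09, and without control 1 by -0.08, 0.02 and -0.04.

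Eif2a and Eif2d can deliver tRNA outside the usual route and are distinct from the Eif2 subunits. Eif2a gave 9.40, 9.47 and 9.45 in NPFF and 9.51, 9.40 and 9.44 in control, a difference of -0.01 (SE 0.06). Eif2d gave 9.17, 9.07 and 9.03 in NPFF and 9.08, 9.14 and 9.19 in control, a difference of -0.05 (SE 0.07). In each the groups overlapped. Eif2c5 belongs here by symbol only: its RefSeq synonym is Ago5, an Argonaute name, and its biotype is long non-coding RNA. Its signal lay at the 38.4th percentile and differed by -0.05 (SE 0.07), and without it the Eif2 mean difference was 0.04.

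Eif3 is the large scaffold on the small subunit, and 12 of its subunit genes were measured. Of these, 9 were higher and 3 lower in NPFF, but without control 1 the count was 3 higher, beside 8670 of all 22180 genes. The Eif3 mean was 10.49, 10.53 and 10.45 in NPFF and 10.23, 10.49 and 10.53 in control, so controls 2 and 3 were level with the NPFF arrays and the difference of 0.07 became -0.02 without control 1. Eif3c, a core subunit, gave 11.50, 11.57 and 11.40 in NPFF and 11.22, 11.45 and 11.56 in control, a difference of 0.08 (SE 0.10). Eif3f gave 11.62, 11.62 and 11.65 in NPFF and 11.26, 11.69 and 11.60 in control, a difference of 0.11 (SE 0.12). Both were lowest in control 1, and without it they differed by -0.01 and -0.02.

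Subunits of Eif3 did not share the dip of control 1 evenly. Eif3k and Eif3l, which form a peripheral pair, were 0.78 and 0.68 lower there than in the mean of the other 5 arrays, and Eif3b, a core subunit, was 0.53 lower. Eif3a, the largest core subunit, was only 0.08 lower, with 10.33, 10.29 and 10.32 in NPFF and 10.23, 10.34 and 10.28 in control. Eif3m was highest in control 1, at 9.82, against 9.50 and 9.54 in controls 2 and 3, and gave 9.55, 9.48 and 9.51 in NPFF. Differences without control 1 were -0.02 for Eif3k, -0.04 for Eif3l, 0.03 for Eif3b, 0.01 for Eif3a and -0.01 for Eif3m. Eif3d, Eif3h, Eif3i and Eif3j1 differed by 0.03, 0.13, -0.06 and 0.04 over all arrays, and without control 1 by -0.09, 0.02, -0.03 and -0.05.

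Eif3e, a subunit of the same complex, was the only member to pass the threshold under any setting tried, and that setting did not converge. It gave 9.97, 10.01 and 9.97 in NPFF and 10.06, 9.96 and 10.17 in control. Control 3 was the highest array, control 2 the lowest, and the groups overlapped. Over all arrays Eif3e differed by -0.08 (SE 0.07). Without control 3 that was -0.03. The default array weights of limma stopped short of convergence, weighting control 3 at 22.6 and control 1 at 0.077. With them Eif3e differed by -0.18 (SE 0.04, adjusted p = 0.0461 by limma), and 1 of 46 members was called where 5.08% of all genes were. With limma's gene-by-gene weights its adjusted p was 0.614. Eif3e is named for this call and was chosen after its values were seen.

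**Figure D2:**
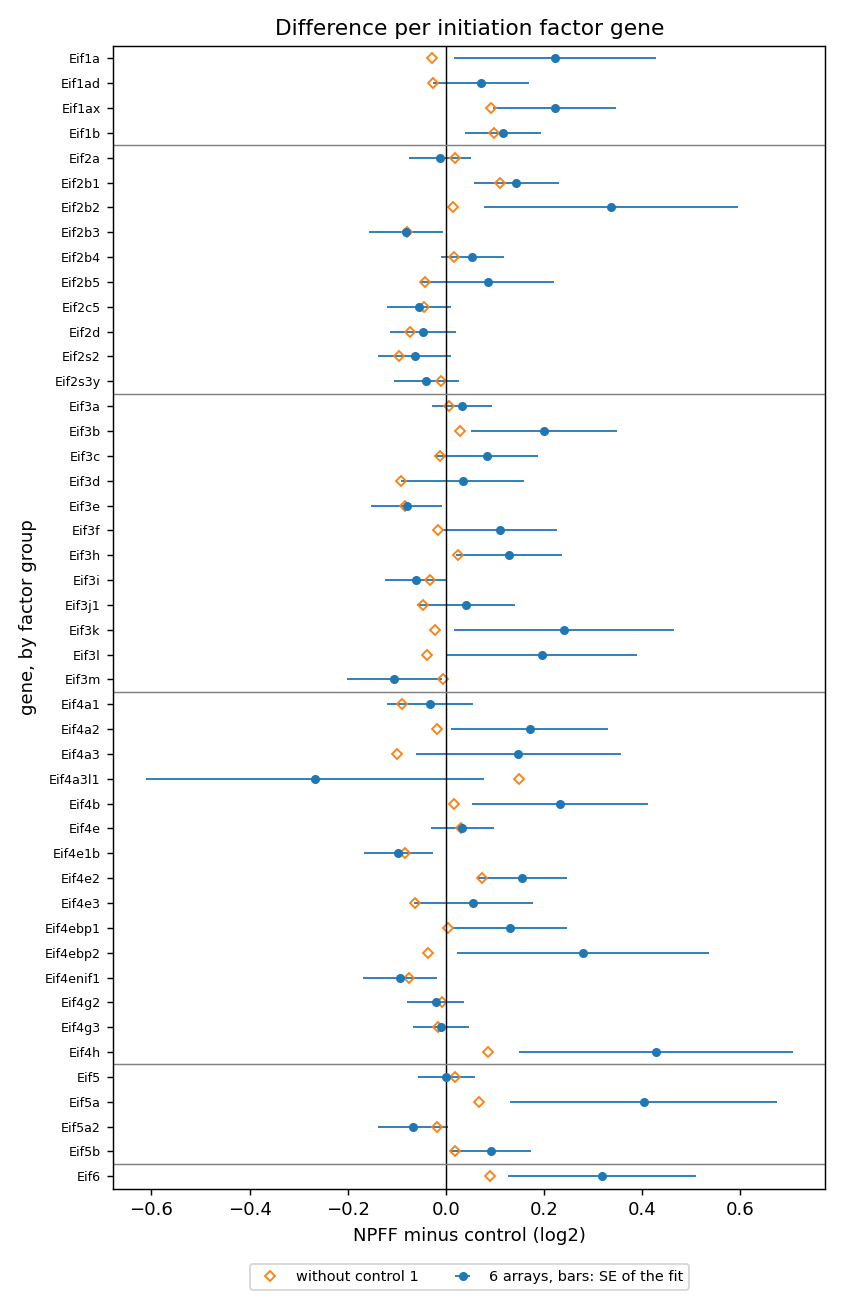
Rows are the 46 genes by factor group, and the horizontal axis is NPFF minus control in log2; filled points use all 6 arrays with bars of 1 SE from the limma fit, and open diamonds leave out control 1. The positive points of Eif4h, Eif5a, Eif2b2 and Eif6 move to between 0.01 and 0.09 without control 1, and Eif4a3l1 moves from -0.27 to 0.15.

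Eif4 genes handle the capped end of the mRNA, and their mean per array was 9.61, 9.65 and 9.64 in NPFF and 9.39, 9.65 and 9.63 in control. The difference of 0.07 became -0.01 without control 1. Eif4e, which binds the cap, gave 10.92, 10.90 and 10.92 in NPFF and 10.87, 10.95 and 10.81 in control, a difference of 0.03 (SE 0.06). Controls lay on both sides of the NPFF arrays. Eif4e2, a cap-binding repressor, differed by 0.16 (SE 0.09) and by 0.07 without control 1. Eif4e3, another cap-binding relative, differed by 0.06 (SE 0.12), and by -0.06 without control 1. Eif4e1b, known from oocytes, differed by -0.10 (SE 0.07), with a signal at the 12.9th percentile of all genes, so it was among the dim features.

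The 4E-binding proteins hold Eif4e away from its scaffold until mTORC1 phosphorylates them. Eif4ebp1 gave 11.54, 11.60 and 11.60 in NPFF and 11.20, 11.61 and 11.54 in control, and Eif4ebp2 gave 9.33, 9.35 and 9.39 in NPFF and 8.44, 9.46 and 9.32 in control. Both were low in control 1 alone. Their differences of 0.13 (SE 0.12) and 0.28 (SE 0.26) became 0.0046 and -0.04 without it. Eif4enif1, which carries Eif4e into the nucleus and into mRNA granules, differed by -0.09 (SE 0.08). The scaffold-type genes Eif4g2 and Eif4g3 differed by -0.02 and -0.01 (SE 0.06 each).

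The helicases and their helpers held both the lowest and the highest difference among members, Eif4a3l1 and Eif4h. Eif4a1, the helicase that unwinds the mRNA leader, gave 13.43, 13.45 and 13.43 in NPFF and 13.36, 13.64 and 13.41 in control, a difference of -0.03 (SE 0.09). Here control 2 was the array apart, and without it the difference was 0.05. A second Eif4a1 feature, which was dimmer and not used, differed by -0.02. Eif4a2, its close paralog, gave 9.28, 9.35 and 9.37 in NPFF and 8.78, 9.33 and 9.37 in control, a difference of 0.17 (SE 0.16) that became -0.02 without control 1. Its other features differed by 0.20 and -0.04. The second of these was dim, with a mean signal of 5.23 against 7.57 for the first and 9.25 for the feature used.

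Eif4b and Eif4h both stimulate the helicase. Eif4b gave 12.01, 11.99 and 12.03 in NPFF and 11.35, 12.01 and 11.97 in control, and Eif4h gave 11.07, 11.14 and 10.96 in NPFF and 9.94, 10.92 and 11.03 in control. In both, controls 2 and 3 stood within 0.05 log2 of an NPFF array and control 1 stood far below. The Eif4h difference of 0.43 (SE 0.28, unadjusted p = 0.172 by limma), 1.35-fold on the linear scale, was the highest of all members and became 0.09 without control 1. For Eif4b, 0.23 (SE 0.18) became 0.02.

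Eif4a3 is the helicase of the exon junction complex and acts in splicing-linked mRNA surveillance, and Eif4a3l1 is a gene named for its likeness to it. Eif4a3 gave 6.89 and 7.11 in NPFF arrays 1 and 2, with the third between them, and 6.36, 7.05 and 7.15 in control, whereas Eif4a3l1 gave 7.19, 6.95 and 7.13 in NPFF and 8.19, 6.77 and 7.12 in control. Control 1 was thus the lowest array for Eif4a3 and the highest for Eif4a3l1, in opposite directions for a pair that may share probe sequence. Their differences of 0.15 (SE 0.21) and -0.27 (SE 0.34) turned sign without control 1, to -0.10 and 0.15. A further feature paired with both symbols was left out by the choice of members.

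**Figure D3:**
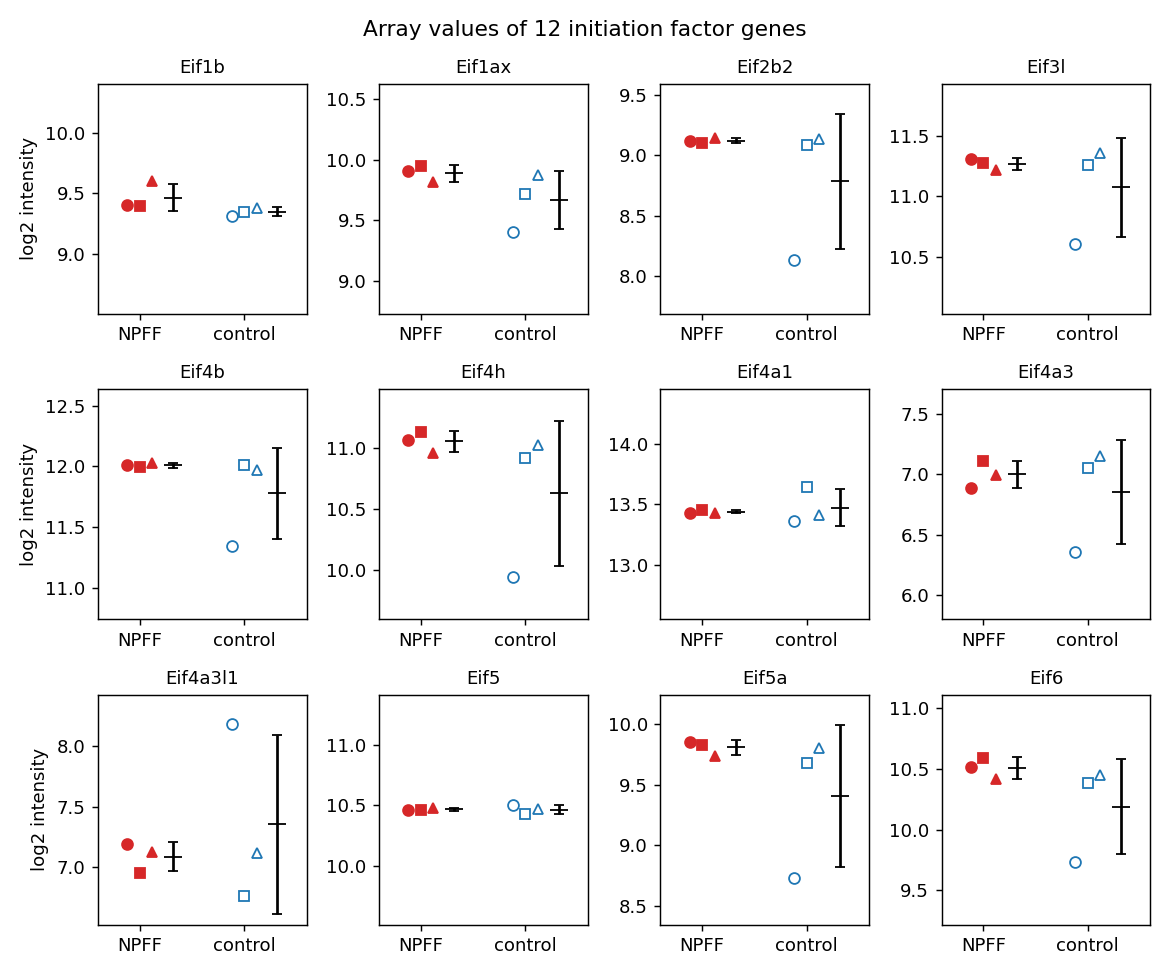
Each panel is 1 of 12 initiation factor genes on a common span of log2 intensity, with NPFF arrays as filled red symbols on the left and control arrays as open blue symbols on the right; circle, square and triangle are replicates 1, 2 and 3, and black bars are the mean ± SD (n = 3). The open circle of control 1 lies apart in Eif2b2, Eif3l, Eif4b, Eif4h, Eif4a3, Eif4a3l1, Eif5a and Eif6, and not in Eif1b, Eif4a1 or Eif5.

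Eif5 genes act late in the start step and after it. The Eif5 group was the only group with a mean above every control in every NPFF array, with 8.56, 8.54 and 8.54 in NPFF and 8.27, 8.52 and 8.53 in control. The margin over control 3 was under 0.01 log2, and the difference of 0.11 became 0.02 without control 1. Eif5 itself, given above, differed by 0.0015 (SE 0.06). Eif5b, which joins the large subunit to the small, gave 7.84, 7.83 and 7.84 in NPFF and 7.60, 7.85 and 7.78 in control, a difference of 0.09 (SE 0.08), or 0.02 without control 1.

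Eif5a carries the modified amino acid hypusine and aids elongation and termination. It gave 9.86, 9.83 and 9.74 in NPFF and 8.73, 9.68 and 9.80 in control. Controls 2 and 3 lay close to the NPFF arrays and control 1 was 1.05 below the mean of the other 5 arrays. The difference of 0.40 (SE 0.27, unadjusted p = 0.185 by limma) became 0.07 without control 1. Its paralog Eif5a2 differed by -0.07 (SE 0.07), with 6.10, 6.03 and 6.12 in NPFF and 6.25, 6.12 and 6.08 in control. That feature was dim, at the 39.4th percentile of signal.

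Eif6 keeps the large ribosomal subunit from joining too early. It gave 10.51, 10.59 and 10.42 in NPFF and 9.73, 10.39 and 10.45 in control. NPFF 3 lay below control 3, so the groups overlapped, and control 1 was the lowest array. The difference of 0.32 (SE 0.19, unadjusted p = 0.144 by limma) became 0.09 without control 1.

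**Figure D4:**
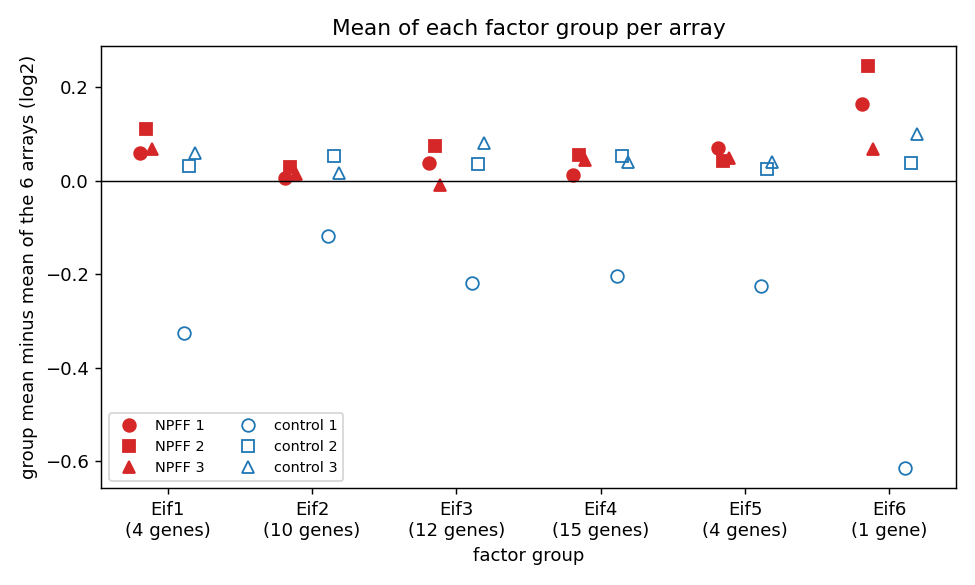
For each factor group the vertical axis gives the mean of its genes in an array minus the mean over the 6 arrays, in log2, with NPFF arrays as filled red symbols left of the control arrays as open blue symbols. Control 1 is the lowest array in all 6 groups, from 0.14 below the mean of the other 5 arrays in Eif2 to 0.74 below in Eif6, while controls 2 and 3 lie close to the NPFF arrays.

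Set against the mean of the controls, each NPFF array was higher in each factor group. NPFF 1, 2 and 3 stood 0.14, 0.19 and 0.15 above it for Eif1, 0.02, 0.05 and 0.03 for Eif2, 0.07, 0.11 and 0.03 for Eif3, 0.05, 0.09 and 0.08 for Eif4, 0.12, 0.10 and 0.10 for Eif5, and 0.32, 0.40 and 0.23 for Eif6. All of these share 1 control mean, which control 1 lowered, so their common sign is not repeated evidence. Without control 1 the mean difference was above 0 in Eif1, Eif5 and Eif6 and below 0 in Eif2, Eif3 and Eif4, at 0.09 or less in size. Over all genes that mean was -0.02, so the values of Eif2, Eif3 and Eif4 (-0.02, -0.02 and -0.01) were near the level of all genes.

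No partner gene of initiation passed the test either. Among 14 measured genes of the mRNA cap and poly(A) partners, 0 had groups that did not overlap, and among 10 measured Eif2 kinases, phosphatase subunits and kinase regulators there were also 0. With 8.58% of all genes not overlapping, such counts in lists of this size say nothing particular about them. Of 13 genes translated or induced when Eif2 is phosphorylated, 10 were higher in NPFF with a median of 0.07. Without control 1 the count was 4 higher with a median of -0.04, beside a median of -0.02 and 8670 of 22180 higher over all genes. Atf5, Ddit4 and Slc7a5 differed by 0.15, 0.19 and 0.11 (SE 0.13, 0.19 and 0.07). The groups overlapped in 12 of the 13. Atf4, the central transcription factor of that response, did not overlap, with 9.56, 9.57 and 9.50 in NPFF and 9.67, 9.61 and 9.66 in control. It differed by -0.10 (SE 0.06). Ddit3, a later factor of the same response, differed by -0.14 (SE 0.09) with overlap, and by -0.22 without control 1.

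For Eif5a, the enzymes that make hypusine and its precursor spermidine were measured. Odc1, the first enzyme of polyamine synthesis, gave 10.25, 10.28 and 10.21 in NPFF and 9.61, 10.07 and 10.10 in control, without overlap, a difference of 0.32 (SE 0.13) that became 0.16 without control 1. Dhps and Dohh, which build hypusine on Eif5a, differed by 0.02 and 0.16, and without control 1 by 0.02 and -0.05. Abce1, the ATPase that recycles ribosomes, gave 11.03, 11.00 and 10.98 in NPFF and 10.91, 10.95 and 10.94 in control, and Eefsec, the selenocysteine elongation factor, gave 9.47, 9.42 and 9.38 in NPFF and 9.07, 9.30 and 9.35 in control. Neither pair of groups overlapped, and the differences were 0.07 (SE 0.06) and 0.18 (SE 0.09), the second of which became 0.10 without control 1. These were 1 of 4 hypusine and polyamine genes, 1 of 5 recycling and reinitiation genes and 1 of 12 elongation and release genes, counts too small to set against the 8.58% of all genes. Among 14 genes of mTORC1 and MNK signalling there were 0, and their median of 0.16 became -0.03 without control 1. No gene of these lists passed limma after adjustment over all genes.

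Ribosomal protein and synthetase genes also had medians nearer 0 without control 1. Over all genes the median was then -0.02, with 8670 of 22180 genes higher. Of 69 genes taken by ribosomal protein symbols, 53 were higher in NPFF with a median of 0.05. Without control 1, 34 were higher and the median was -0.0032. The symbol rule also took in Rps19bp1, Rps23rg1 and, by biotype, the pseudogenes Rpl6l and Rps4l. In 7 of the 69 the groups did not overlap, of which 5 had NPFF above and 2 below. Of 15 cytosolic aminoacyl-tRNA synthetase genes, 14 were higher with a median of 0.12. Without control 1, 10 were still higher and the median was 0.04, which remained above that of all genes. In 5 of those 15 the groups did not overlap, with NPFF above control in each. Of 16 mitochondrial synthetase genes, 11 were higher with a median of 0.11. Without control 1, 4 were higher and the median was -0.05. There the groups did not overlap in 3 (Fars2, Nars2 and Wars2), with NPFF below control in each. Against these stand 1 of 46 initiation factors, 8.58% of all genes and 15.8% of the genes in the top 20% by signal. The differences between these shares were not tested.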

How the data were processed

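Transcript levels were measured on 6 Affymetrix whole-transcript arrays, 3 per group, with groups taken from the sample titles. The authors deposited 1 log2 intensity per feature and array, a scale judged from the values, which lie between 4.59 and 14.0. How they corrected background and normalized, and on which genome build, is not stated in the sources used here. Of 33794 features, a platform annotation paired 23521 with 1 symbol and 1814 with several, and left 8459 unnamed here. The 8 features that pair an initiation factor with another symbol were left out. Because the arrays' sorted values differed from their common mean by up to 0.17, quantile normalization over all features was applied. The feature of highest mean was kept per gene, and no dim feature was removed. Limma 3.58.1 in R 4.3.3 (lmFit, eBayes) was fitted over 22180 genes on group alone, two-sided, with a threshold of 0.05. Group means and gene lists were described without a test. The number of arrays limits the precision. The fit was tested on simulated data, where it recovered 31.3% of added changes of 0.5 log2 and 77.6% of those of 1 log2. The simulated noise was independent between genes and had the same SD in both groups. It thus held no array apart like control 1, and those shares need not hold for the real arrays. Alternatives were the deposited scale, median centring, cyclic loess, the mean over features, a filter at the 20th percentile, a replicate block, array weights and left-out arrays, the last taken from values already normalized.

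By rule, array values were given for the 2 brightest members of each factor group, those without overlap and the paralogs of these. Array values of further members were added after their values were seen, to show where control 1 did or did not stand apart. In the partner lists the rule named only genes whose groups did not overlap. Atf5, Ddit3, Ddit4, Slc7a5, Dhps and Dohh were named outside that rule. The members and lists were chosen with earlier results of these data known. Same-numbered replicates had deviations correlated at 0.23, 0.45 and -0.33, so the numbers were not taken as pairs.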

Additional observations from a re-analysis of the deposited data

How the results depend on the processing

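The count of genes past an adjusted p of 0.05 was 0 in limma over all genes and 0 in 15 of 16 other settings, with 235 to 2397 genes at an unadjusted p under 0.05 when 1 array was left out, the highest without control 1. The exception was 1127 with default array weights, among them Eif3e alone of the members; 5757 genes then had an unadjusted p under 0.05, so the whole table shifted with that setting. With the replicate number as a block, 0 genes passed and 396 had an unadjusted p under 0.05, against 556 without it, and no member changed its call. Factor group means kept within 1 SD of their main values in every setting, but that SD holds control 1: leaving out 1 array gave 0.03 to 0.23 for Eif1, -0.02 to 0.07 for Eif2, -0.02 to 0.13 for Eif3, -0.01 to 0.12 for Eif4, 0.02 to 0.15 for Eif5 and 0.09 to 0.45 for Eif6, each lowest without control 1. Without Eif2c5 the Eif2 mean was 0.04 and without Eif4a3l1 the Eif4 mean was 0.10, both alternatives chosen after seeing the data.

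In 18 of 46 members the sign turned when some 1 array was left out. Among the members described by rule, leaving out 1 array gave differences of -0.027 to 0.13 for Eif1ad, -0.039 to 0.020 for Eif2a, -0.016 to 0.20 for Eif3f, -0.012 to 0.16 for Eif3c, -0.088 to 0.054 for Eif4a1, -0.017 to 0.019 for Eif5, -0.027 to 0.36 for Eif1a, -0.018 to 0.28 for Eif4a2, -0.10 to 0.30 for Eif4a3 and -0.56 to 0.15 for Eif4a3l1. Of the further members that turned, Eif2b5, Eif3d, Eif3j1, Eif3k, Eif3l, Eif4e3 and Eif4ebp2 did so without control 1, and Eif4g3 without control 2 (0.0088). Against control 3 alone, and with default array weights, the values were -0.0095 and -0.011 for Eif1ad, -0.070 and -0.064 for Eif3c, 0.028 and 0.024 for Eif4a1, -0.00018 and -0.00069 for Eif5, -0.0048 and -0.0055 for Eif1a, -0.040 and -0.044 for Eif4a2 and -0.15 and -0.16 for Eif4a3. With gene-by-gene weights they were -0.0092 for Eif1ad, 0.0015 for Eif2a, -0.027 for Eif3c, -0.013 for Eif4a2, -0.11 for Eif4a3 and 0.030 for Eif4a3l1. Eif5 was also below 0 as deposited (-0.0054), with medians centred (-0.0030) and after cyclic loess (-0.036). The use of control 3 alone leaves out control 1 by construction. Both kinds of array weights were estimated from the data, and control 1 received the lowest weight in each (0.077 and 0.12). The causes of the turns were not tested. With 3 arrays a group, differences near an SE of 0.06 to 0.34 could not be resolved.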
